A study of Mus musculus with 48 samples.

Results

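The interferon response genes described here are 36 genes that cells switch on when an interferon binds its receptor, or that carry that signal. They were taken as a fixed list of gene symbols. Each gene was represented by 1 probe, the one of highest mean over the 48 arrays where a gene had several. All 36 had a probe, out of 22436 distinct gene symbols on the Illumina mouse array, and 17 of them had more than 1. The arrays held RNA of primary striatal cultures of C57Bl/6J mice, in 12 groups of 4 arrays. Astrocytes, isolated from pups in their first week with magnetic beads against the surface transporter GLAST and grown in serum, were treated for 4 h with dexamethasone at 100 nM, with aldosterone, progesterone, 5α-dihydrotestosterone or β-estradiol at 200 nM each, or with vehicle, a trace of ethanol. Neurons, from late embryos, kept in Neurobasal medium with B27 and by the methods holding a small share of other cells, received the same 5 steroids at the same doses or vehicle for 4 h. The study reports that the bead-isolated astrocytes also held other cells, by its stated purities a larger share than the neuron cultures. Supplements were withdrawn from all cultures for the last day. The study's methods describe the 4 arrays of a group as biological replicates. The labels number them 1 to 4.

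Type I interferons act through the receptor subunits Ifnar1 and Ifnar2, which activate the kinases Jak1 and Tyk2. Stat2 and Irf9 are part of the complex that then binds the interferon-stimulated response element, ISRE. Interferon gamma acts through Ifngr1 and Ifngr2 and the gamma-activated sequence, GAS, and raises Irf1 and the guanylate-binding proteins. In the brain, astrocytes and microglia both respond to interferons, and glucocorticoids are known to dampen many inflammatory genes.

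The sequences just upstream of 8 members that carry the comparisons below are shown because those members differ in the element they hold. Each line gives the 160 bases before the RefSeq transcript start on the gene's own strand, 5′ to 3′, in build GRCm38.p6. Capitals mark a match to the ISRE core (GAAA, then any 2 bases, then GAAA) in the first 6 sequences and to the GAS core, TTCNNNGAA, in Irf1 and Psmb8. An ISRE core on the opposite strand reads TTTC, any 2 bases, TTTC. Isg15 had 3 overlapping ISRE cores and Ifit3 had 2.
Isg15, chr4:156200819-156200978, minus strand: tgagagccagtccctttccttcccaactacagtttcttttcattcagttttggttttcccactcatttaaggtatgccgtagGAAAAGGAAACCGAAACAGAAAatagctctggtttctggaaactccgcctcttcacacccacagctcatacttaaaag
Ifit3, chr19:34583369-34583528, plus strand: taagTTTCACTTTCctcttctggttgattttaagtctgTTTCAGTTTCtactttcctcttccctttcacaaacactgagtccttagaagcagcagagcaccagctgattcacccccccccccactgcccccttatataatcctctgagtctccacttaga
Rsad2, chr12:26456453-26456612, minus strand: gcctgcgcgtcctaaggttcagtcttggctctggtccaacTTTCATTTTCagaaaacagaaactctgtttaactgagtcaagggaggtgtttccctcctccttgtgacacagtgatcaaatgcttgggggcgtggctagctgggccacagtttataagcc
Gbp2, chr3:142620503-142620662, plus strand: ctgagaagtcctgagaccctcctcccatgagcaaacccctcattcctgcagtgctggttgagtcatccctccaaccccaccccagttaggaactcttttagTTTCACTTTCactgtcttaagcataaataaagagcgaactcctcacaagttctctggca
B2m, chr2:122147527-122147686, plus strand: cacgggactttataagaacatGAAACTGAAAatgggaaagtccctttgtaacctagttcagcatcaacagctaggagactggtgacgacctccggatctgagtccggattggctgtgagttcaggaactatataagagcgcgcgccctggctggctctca
Igtp, chr11:58199396-58199555, plus strand: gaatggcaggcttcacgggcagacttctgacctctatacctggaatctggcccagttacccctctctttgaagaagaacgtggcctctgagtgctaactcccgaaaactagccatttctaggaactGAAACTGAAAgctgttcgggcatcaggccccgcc
Irf1, chr11:53769854-53770013, plus strand: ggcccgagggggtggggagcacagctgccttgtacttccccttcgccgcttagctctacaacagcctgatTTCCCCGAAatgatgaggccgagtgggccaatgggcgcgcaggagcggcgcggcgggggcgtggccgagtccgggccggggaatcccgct
Psmb8, chr17:34198035-34198194, plus strand: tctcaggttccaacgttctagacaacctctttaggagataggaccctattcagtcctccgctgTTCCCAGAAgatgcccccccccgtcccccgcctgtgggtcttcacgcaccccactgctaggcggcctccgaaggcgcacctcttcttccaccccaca

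RefSeq promoter windows of 300 bases, 250 before and 50 after the start, were at hand for 29 of the 36 members. The ISRE core, searched on both strands, lay in the window of 15 of the 29 (51.7%), against 3.99% of all 27025 genes with a window. The GAS core lay in 7 of the 29 (24.1%), against 9.55% of all genes, and 3 members held both. Igtp also held a GAS core that overlaps no capital above. A match of letters is a description, not a site or a cause.

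The measurement was a log2 intensity. Values ran from 6.02 to 16.65 over all probes, array medians lay between 7.10 and 7.16, and a level under 7.5 is called dim here. The mean over the 48 arrays was under 7.5 for 61.1% of the 46174 probes. Of the members, 7 were dim in every group, namely Ifit1, Oasl1, Oas3, Mx1, Ifih1, Iigp1 and Xaf1. A level of 7.5 or more was reached in at least 1 astrocyte group by 29 members and in at least 1 neuron group by 15. The array labelled vehicle neurons 3 read 10.64 for Fkbp5, a glucocorticoid receptor target, against 9.78 to 9.81 on the other vehicle neuron arrays. The array labelled dexamethasone neurons 3 read 9.85, against 10.50 to 10.85 on the other dexamethasone neuron arrays. Both arrays thus went against their labels and were left out, so 46 arrays were fitted. A fit with the replicate number as a block is given wherever it changed a call. In bulk RNA, fewer cells of a type and less RNA per cell cannot be told apart.

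**Figure D1:**
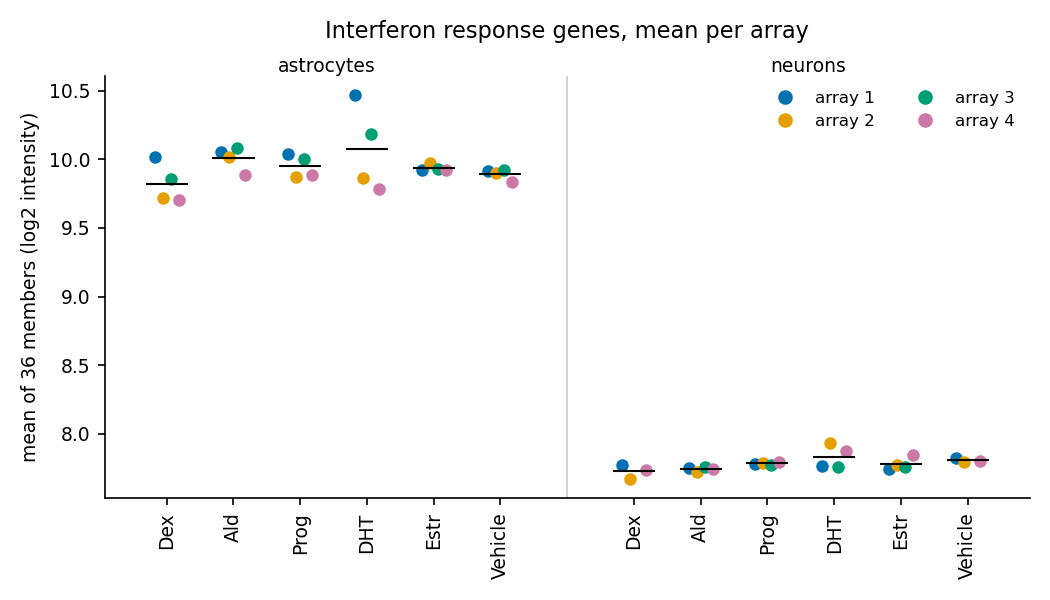
Mean log2 intensity of the 36 interferon response genes on each fitted array (y axis) by group (x axis), each point 1 array coloured by its replicate number, each line a group mean. Astrocyte arrays lay between 9.70 and 10.47 and neuron arrays between 7.67 and 7.94, with dihydrotestosterone astrocytes 1 the highest array.

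The first comparison asks how the level of these genes differs between the cell types without a steroid. The cultures also differed in donor age, isolation and growth medium, and by the matching described below no chip held both cell types. Cell type cannot be told apart from these here. Vehicle astrocytes had higher levels than vehicle neurons for 30 of the 36 members and lower levels for 0 (limma, false discovery rate 0.01), a share of 83.3%. Of all probes, 16.2% were called higher. Among brighter probes, those with a mean of at least 7.5, 68.1% were called in either direction, and 25 of 25 brighter members were called. The members' median difference was 2.12 on the log2 scale, against 0.001 over all probes. In vehicle neurons 23 members were under 7.5, and 16 of these were at 7.5 or more in vehicle astrocytes. For those 16 the difference below is given as a lower bound, the astrocyte mean minus 7.5, because a dim level has no exact value. With dim levels set at 7.5, and 0 for members dim in both, the median was 1.89. For 27 members all 24 astrocyte arrays lay above all 22 neuron arrays, over every treatment. The share of all probes without overlap was not counted, so this count stands without a background.

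Among the effector genes, Gbp2, a guanylate-binding protein that attacks vacuoles of intracellular pathogens, had the largest difference. It read 12.97, 12.80, 12.73 and 12.57 in vehicle astrocytes, against 7.70, 7.93 and 7.99 in vehicle neurons. The groups did not overlap, and the difference was 4.89 (adjusted p = 8.017e-31). Ifit3, a tetratricopeptide protein of the antiviral response, read 12.53, 12.55, 12.60 and 12.40 in vehicle astrocytes and 7.80, 7.75 and 7.79 in vehicle neurons. It was little above the dim limit in neurons and high on every astrocyte array, a difference of 4.74 (adjusted p = 5.575e-26). Parp14, a mono-ADP-ribosyltransferase, read 11.55, 11.54, 11.35 and 11.00 in vehicle astrocytes, against 7.15, 7.36 and 7.22 in vehicle neurons. Dim in neurons and high in astrocytes, it differed by at least 3.86 on the log2 scale (adjusted p = 9.398e-27). Psmb8, a catalytic subunit of the immunoproteasome, read 11.85, 12.09, 12.05 and 12.02 in vehicle astrocytes and 7.94, 8.12 and 7.88 in vehicle neurons. It too showed no overlap and differed by 4.02 (adjusted p = 9.908e-29). Other probes of these genes gave smaller differences. The second probe of Ifit3 gave 1.19 and that of Psmb8 1.59, both called and both dim in vehicle neurons. Other Gbp2 probes gave -0.04 (adjusted p = 0.858) and 0.25 (adjusted p = 0.0648). The second Parp14 probe gave 0.275 (adjusted p = 0.0186). These Gbp2 and Parp14 probes were dim in both cell types and not called.

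Most of the remaining effectors were dim in vehicle neurons. Differences were at least 3.43 for Usp18, the protease that removes Isg15 from proteins, at least 3.16 for Isg15 itself, a ubiquitin-like modifier, and at least 3.39 for Bst2 (tetherin), which holds budding virions at the cell surface. In the oligoadenylate synthetase family Oasl2 differed by 3.35 and Oas2 by at least 0.38. Oasl1 was called but dim in both cell types, at 7.39 in vehicle astrocytes and 6.79 in vehicle neurons, and Oas3 was dim in both and not called. Ifit2 differed by 2.87, Rsad2 (viperin) by at least 2.77 and Mx2, a dynamin-like GTPase, by at least 0.54. Of the immunity-related GTPases, Igtp differed by at least 3.32 and Ifi47 by at least 0.05. Irgm1 too depended on the probe. Its brightest probe averaged 14.29 in vehicle astrocytes and 13.50 in vehicle neurons, a difference of 0.79, and a second probe averaged 10.09 in vehicle astrocytes and 7.39 in vehicle neurons, a difference of 2.69. Gbp3 differed by at least 3.79, Ifi35 by at least 1.30 and Epsti1 by at least 0.37.

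Antigen presentation genes followed the same direction. B2m, the light chain of MHC class I, averaged 15.87 in vehicle astrocytes, close to the top of the scale, and 12.20 in vehicle neurons, a difference of 3.67. Psmb9, an immunoproteasome subunit, differed by 2.81 and the peptide transporter Tap1 by at least 0.83. Among transcription factors the differences were 2.77 for Irf1, 2.39 for Irf9, 2.27 for Irf2, at least 0.34 for Irf7 and 0.59 for Stat2. Among RNA sensors and their regulators they were 3.01 for Trim25, the ubiquitin ligase of RIG-I, at least 1.5 for Dhx58 (LGP2) and at least 1.0 for Ddx58 (RIG-I). The 6 members not called were Ifih1, Iigp1, Mx1, Ifit1, Oas3 and Xaf1, and all 6 were dim in both cell types. Some further probes of called members, dim in both cell types, also were not called. Among them were probes of B2m (adjusted p = 0.195), Trim25 (adjusted p = 0.0608) and Epsti1 (adjusted p = 0.0506 and 0.258).

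**Figure D2:**
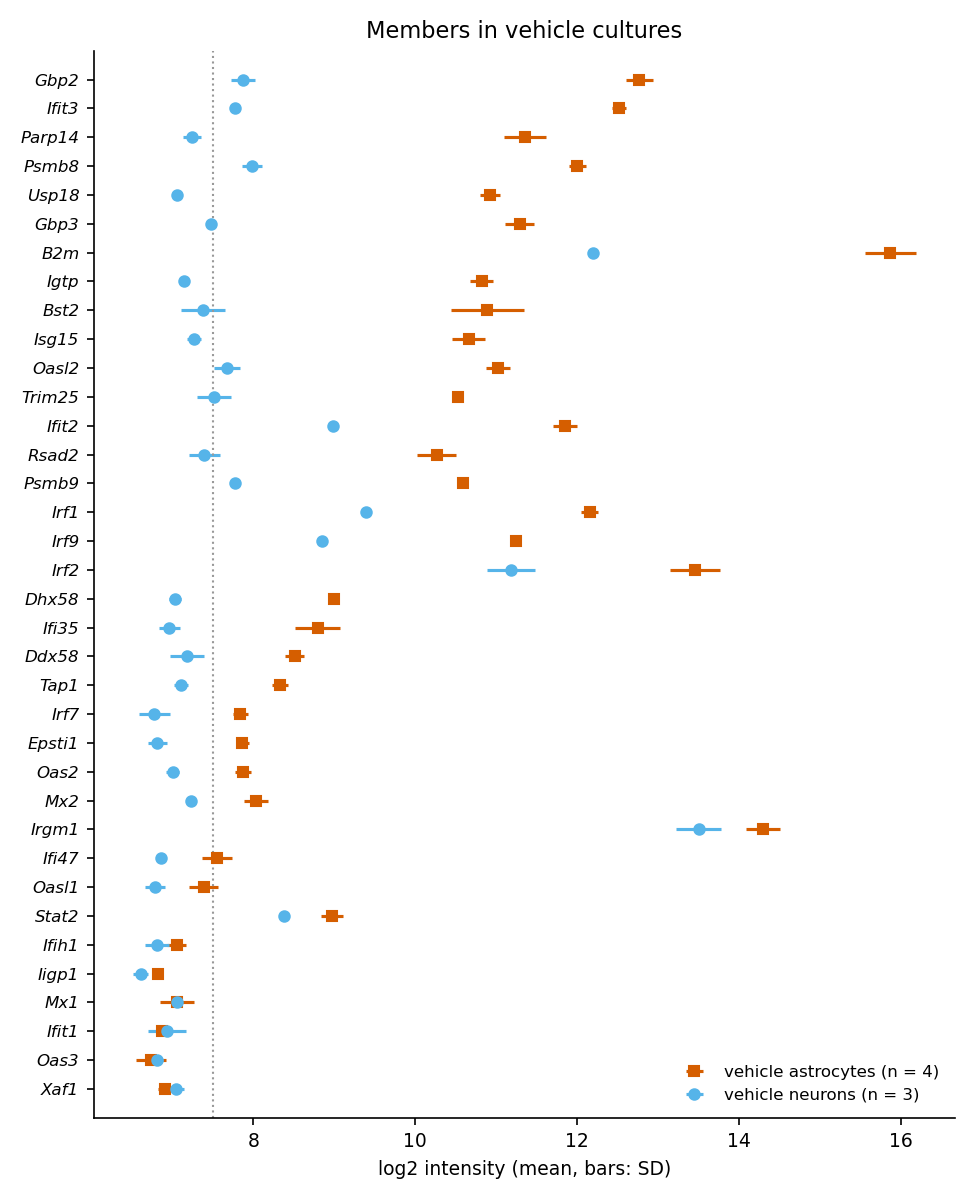
Log2 intensity of each of the 36 genes (by gene, top to bottom) in vehicle astrocytes (squares, n = 4) and vehicle neurons (circles, n = 3), with log2 intensity on the x axis, bars for the SD and a dotted line at the dim limit of 7.5. Of the 36 genes, 30 were called higher in astrocytes, and the means of the 6 not called lay under 7.5 in both cell types.

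The labelled cell types held their defining markers, with Gfap at 16.38 in vehicle astrocytes and 11.72 in vehicle neurons, and Rbfox3 at 7.20 in vehicle astrocytes and 13.38 in vehicle neurons. Markers of microglia moved with the cell type. Of 16, 14 were called higher in vehicle astrocytes and 0 lower, with a median difference of 3.14, and their summed linear intensity was 181104 to 215284 on the astrocyte arrays and 13839 to 29226 on the neuron arrays. Laptm5 reached 16.19 and C1qc 14.60 in vehicle astrocytes, while Ptprc (7.03) and Fcer1g (6.80) were near background there. Their part in the difference of the interferon response genes was not tested. Endothelial markers were called higher for 1 of 7 and lower for 2, and fibroblast and mural markers higher for 2 of 7 and lower for 1.

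Upstream of these genes, the levels of other pathway members were as follows. Of 7 interferon ligand genes 0 were called between vehicle astrocytes and vehicle neurons (limma, with 1 at an unadjusted p under 0.05). Of 4 receptor genes 2 were higher and 1 lower, and of 4 measured kinase and Stat genes 3 were higher. All 3 of the other interferon regulatory factors measured were higher in astrocytes. Of 34 further interferon targets 22 were higher and 1 lower, with a median of 1.83.

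Dexamethasone is a synthetic agonist of the glucocorticoid receptor. In dexamethasone astrocytes 1 member was lower and 1 higher than in vehicle astrocytes, out of 36. Of all probes 3.55% were called, 1.6% lower and 1.95% higher, and of the brighter probes 8.03%, against 2 of 25 brighter members. At an unadjusted p under 0.05 there were 8 members. The members' median difference was -0.04, with 13 positive and 22 negative, so the list as a group lay near 0. Their mean was 10.018 on dexamethasone astrocytes 1 and 9.701 to 9.857 on the other dexamethasone astrocyte arrays. In vehicle astrocytes it was 9.835 to 9.919. The median without dexamethasone astrocytes 1 was not computed.

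Irf1, the factor that carries much of the interferon gamma response, was the member that fell. It read 11.68, 11.62, 11.61 and 11.68 in dexamethasone astrocytes, against 12.28, 12.21, 12.06 and 12.07 in vehicle astrocytes. Every dexamethasone array lay below every vehicle array, and the difference was -0.51 ± 0.10 (SE; adjusted p = 0.00022, and 0.0145 by the methods' test, short of the threshold). The interval ran from -0.70 to -0.31. Irf1 had 5 probes, and the other 4 did not pass. They gave -0.44 (adjusted p = 0.0112), -0.30 (adjusted p = 0.0248), -0.12 (adjusted p = 0.671) and, on a probe dim in vehicle astrocytes, 0.09 (adjusted p = 0.748). Ifi35, a leucine zipper protein induced by interferons, was the member that rose. It read 9.46, 9.10, 9.39 and 9.30 in dexamethasone astrocytes and 8.50, 8.98, 8.62 and 9.08 in vehicle astrocytes, where arrays 1 and 3 were lowest. The groups did not overlap, and the difference was 0.52 ± 0.12 (SE; adjusted p = 0.00328). It missed the threshold by the methods' test (adjusted p = 0.271), with astrocytes fitted alone (adjusted p = 0.0208) and without dexamethasone array 1 or 3 or vehicle array 1 or 3 (adjusted p 0.0151 to 0.0396). Of members that did not pass, Psmb9 differed by -0.31 (adjusted p = 0.0724), Gbp2 by -0.40 (adjusted p = 0.107) and Ifit2 by -0.29 (adjusted p = 0.111).

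Aldosterone, the mineralocorticoid hormone, gave 1 call in astrocytes, with 0.574% of all probes called and 0.472% higher. Again it was Ifi35, at 9.35, 9.31, 9.53 and 9.16 in aldosterone astrocytes, against 8.50, 8.98, 8.62 and 9.08 in vehicle astrocytes. The groups did not overlap and the difference was 0.54 ± 0.12 (SE; adjusted p = 0.00864). It missed the threshold without aldosterone array 1, 2 or 3 or vehicle array 1 or 3 (adjusted p 0.0229 to 0.0808). It also missed it with quantile normalization inside each cell type, with astrocytes fitted alone, with the chip identifier of the labels as a random block and by the methods' test (adjusted p 0.0139 to 0.493). Those identifiers matched the array they name in only 1 of 48 columns, so that block cannot be taken to stand for chips. The same vehicle arrays served the dexamethasone and aldosterone comparisons. Epsti1, an interferon-induced gene, read 8.25, 8.20, 8.28 and 8.15 in aldosterone astrocytes and 7.93, 7.93, 7.86 and 7.75 in vehicle astrocytes. It did not overlap but differed by 0.35 ± 0.09 (SE; adjusted p = 0.0224), and passed in the fit blocked by number (adjusted p = 0.00457). Irf1 read 12.01, 12.16, 11.74 and 11.80 in aldosterone astrocytes, overlapping the vehicle arrays, a difference of -0.23 (adjusted p = 0.382). The median of the 36 was 0.11.

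**Figure D3:**
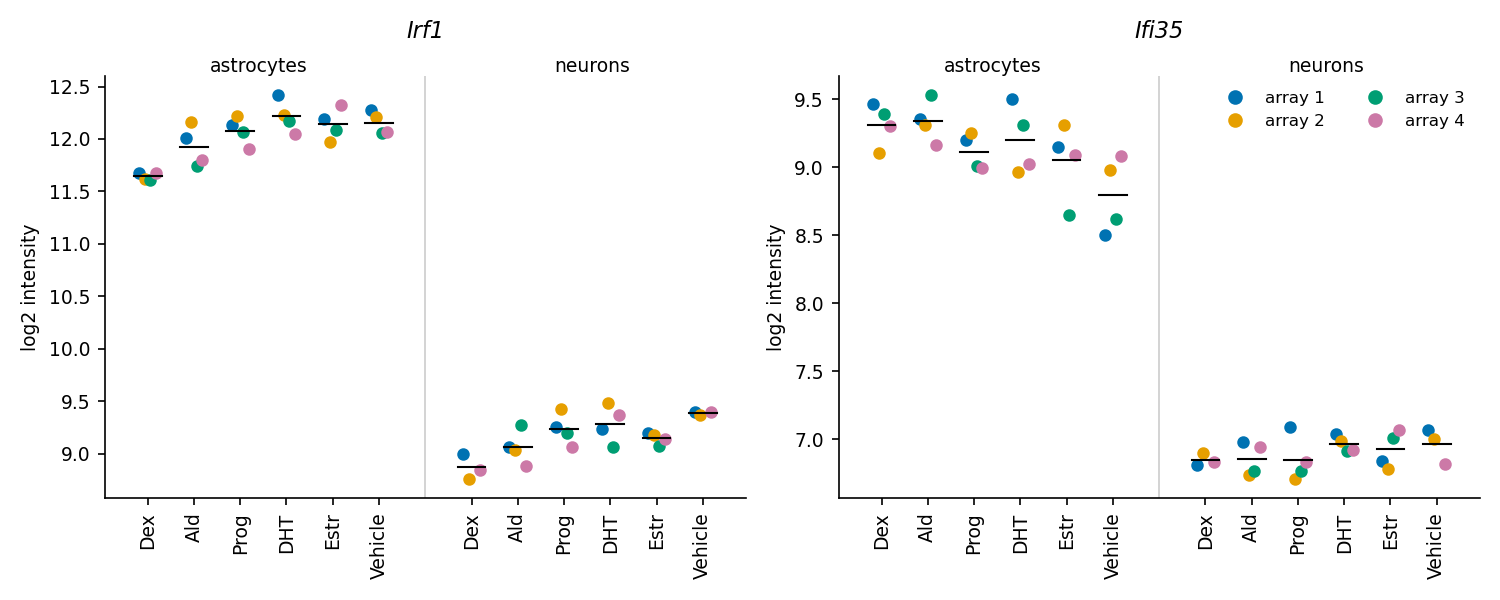
Log2 intensity (y axis) of Irf1 and Ifi35 on each fitted array by group (x axis), coloured by replicate number, with the group mean as a line. The 4 dexamethasone astrocyte arrays lay below the 4 vehicle astrocyte arrays for Irf1 (11.61 to 11.68 against 12.06 to 12.28) and above them for Ifi35 (9.10 to 9.46 against 8.50 to 9.08).

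Progesterone, dihydrotestosterone and estradiol, ligands of the progesterone, androgen and estrogen receptors, gave 0 calls among the 36 members in astrocytes by limma, with 0.0563%, 0 and 0% of all probes called. At an unadjusted p under 0.05 there were 4, 12 and 4 members. The members' medians were 0.08, 0.20 and 0.02. Without dihydrotestosterone array 1 that steroid's median was 0.08, with 4 members at an unadjusted p under 0.05 and 0 called.

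Other genes of the pathway were measured in the same astrocytes. Of 34 further interferon targets 3 fell with dexamethasone and 0 rose, against 1.6% of all probes lower and 1.95% higher. Among brighter probes 8.03% were called in either direction. The 3 targets were Cxcl10, a chemokine for T cells (-2.09 ± 0.13 SE; adjusted p = 3.777e-17), the guanylate-binding protein Gbp7 (-0.58; adjusted p = 0.000583) and the Fc receptor and ubiquitin ligase Trim21 (-0.48; adjusted p = 0.00279). Of the receptors, Ifnar2 fell (-0.55; adjusted p = 0.00385) and Ifngr1 rose (0.63; adjusted p = 0.000164). Of the nucleic acid sensors and adaptors, Tlr3 fell by 0.52 (adjusted p = 0.000305) and Tlr7 rose by 1.02 (adjusted p = 5.472e-10). The phosphatase Ptpn6, an inhibitor of cytokine signaling, fell by 0.76 (adjusted p = 1.759e-06). Of 7 ligand genes 0 were called (limma, 0 at an unadjusted p under 0.05). With aldosterone, Cxcl10 fell by 1.25 (adjusted p = 4.816e-09) and Tlr7 rose by 0.64 (adjusted p = 0.000141), and neither was called with progesterone, dihydrotestosterone or estradiol. As a check of the treatment, 11 of 12 glucocorticoid receptor target genes rose with dexamethasone in astrocytes, with a median of 2.40. Of 16 microglia markers, C1qb rose by 0.59 and Cx3cr1 and P2ry12 fell by 1.04 and 0.58. The summed microglia marker intensity was 188052 to 194164 in dexamethasone astrocytes and 181104 to 189769 in vehicle astrocytes, and its part in these changes was not tested.

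In neurons 0 of the 36 members were called in dexamethasone against vehicle cells (limma, 4 at an unadjusted p under 0.05), with 0.117% of all probes called. Irf1 came closest. It read 9.0, 8.76 and 8.84 in dexamethasone neurons, against 9.40, 9.37 and 9.40 in vehicle neurons, with no overlap. The difference was -0.52 ± 0.11 (SE; adjusted p = 0.0186), and it passed in the fit blocked by number (adjusted p = 0.00464, where 0.21% of all probes were called). With both left-out arrays back in, it was -0.28 (adjusted p = 0.997). The difference of the Irf1 effect between astrocytes and neurons was 0.02 ± 0.15 (SE; 95% interval -0.28 to 0.31). Of the 12 glucocorticoid receptor targets 3 rose in neurons. The arrays left out had been judged by Fkbp5, itself among these targets, so this count is no independent check of the treatment. Aldosterone, progesterone, dihydrotestosterone and estradiol gave 0 calls among the members in neurons (limma, with 1, 0, 0 and 1 at an unadjusted p under 0.05), and 0.00217%, 0, 0 and 0% of all probes were called.

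Each steroid's effect in astrocytes was also set against its effect in neurons, in 5 tests. None of the 36 members was called in any of them by limma, at 1, 0.119, 0.00866, 0 and 0% of all probes for dexamethasone, aldosterone, progesterone, dihydrotestosterone and estradiol, with 2, 4, 2, 4 and 2 members at an unadjusted p under 0.05. For Ifi35 the astrocyte effect minus the neuron effect was 0.63 ± 0.18 with dexamethasone (SE; adjusted p = 0.0733) and 0.65 ± 0.18 with aldosterone (SE; adjusted p = 0.193). Neither passed the threshold, and Ifi35 was dim in neurons.

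The 4 steroids given at 200 nM were compared with each other in 12 pairs, 6 in each cell type. Again 0 members were called by limma. Of all probes, 0.156, 0.394 and 0.385% were called in astrocytes for aldosterone against progesterone, dihydrotestosterone and estradiol, and 0.026, 0.0217 and 0% in the other astrocyte pairs. In neurons the shares were 0, 0.00433 and 0.00217% for the aldosterone pairs and 0, 0.00217 and 0% for the others. The count at an unadjusted p under 0.05 was 0 to 4 members over the pairs, and the lowest adjusted p of a member was 0.332, for Irf1 in aldosterone against dihydrotestosterone astrocytes. No difference of a member was beyond 0.58 in astrocytes or 0.46 in neurons, and the 95% intervals reached from -1.06 to 1.03. For Ifi35, aldosterone astrocytes differed from progesterone astrocytes by 0.23 (95% interval -0.02 to 0.47), from dihydrotestosterone astrocytes by 0.14 (-0.10 to 0.38) and from estradiol astrocytes by 0.29 (0.04 to 0.53). Dexamethasone was given at 100 nM and is not compared with these.

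More members were called in astrocytes for replicate number than for any steroid. The tests differ, since number was compared over all 24 astrocyte arrays and each steroid in a group of 4 against vehicle. In astrocytes 15 of 36 (41.7%) differed between the numbers 1 to 4 after the treatment was taken into account, and 12.2% of all probes did. By the methods' test, without limma's pooled spread, 3 members were called, B2m, Gbp2 and Parp14. Among brighter probes the shares were 52% of members (13 of 25) and 28% of probes. The distance between the highest and lowest number mean was 0.34 to 0.77 for the 15. Number 1 was highest for 12 of them and number 4 lowest for 10. For 7 of them, Ifit3, Usp18, Oas2, Rsad2, Mx2, Igtp and Parp14, array 1 lay above array 4 in 6 of 6 treatments. In a second deposited table of non-normalized values, matched to the arrays by correlation, each of 8 chips held 1 cell type and 1 number, but only 1 of 48 columns was closest to the array its identifier names. Number and chip cannot be told apart here.

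Parp14 had the smallest p of the list. Over the 6 treatments its lowest, median and highest levels were 11.37, 11.64 and 12.12 on arrays numbered 1, and 11.41, 11.68 and 11.79 on those numbered 2. They were 11.04, 11.37 and 11.53 at number 3 and 10.77, 11.16 and 11.39 at number 4. Number 2 lay wholly above number 4, and number 1 overlapped it at the edge (adjusted p = 1.56e-07). B2m had another order. Number 2 was lowest, at 15.51, 15.60 and 15.65, and lay below every array of numbers 3 (16.14, 16.16 and 16.36) and 4 (16.09, 16.16 and 16.26). Number 1 was split, with the estradiol and vehicle arrays at 15.63 and 15.66 and the other treatments at 16.10 to 16.24 (adjusted p = 2.918e-06).

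Rsad2, Isg15 and Igtp had their lowest mean at number 4. Rsad2 read 10.50, 10.54 and 11.24 at number 1, 9.65, 10.37 and 10.65 at number 2, 9.88, 10.55 and 10.65 at number 3, and 9.89, 10.04 and 10.08 at number 4. All 6 arrays of number 1 lay above all 6 of number 4 (adjusted p = 6.706e-06). Isg15 read 10.42, 10.90 and 12.40 at number 1, 10.20, 10.55 and 10.77 at number 2, 10.88, 10.90 and 11.47 at number 3, and 9.74, 10.38 and 10.73 at number 4. Number 3 lay wholly above numbers 2 and 4, and number 1 overlapped all of them (adjusted p = 1.614e-05). The GTPase Igtp read 11.01, 11.17 and 11.86 at number 1 and 10.36, 10.72 and 11.00 at number 4, without overlap, and the medians of numbers 2 (10.57, 10.99 and 11.16) and 3 (10.63, 10.92 and 11.14) lay between theirs (adjusted p = 6.046e-05). Irf7, the factor that amplifies type I interferon production, read 7.89, 8.24 and 9.15 at number 1, 7.15, 7.73 and 7.84 at number 2, 7.77, 8.03 and 8.31 at number 3, and 7.40, 7.87 and 7.98 at number 4. Here number 2 lay wholly below number 1 (adjusted p = 3.419e-05).

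The other members called were Ifit3, Mx2, Oasl2, Gbp3, Usp18, Oas2, Dhx58, Trim25 and Irf2, with adjusted p between 6.834e-05 and 0.00345. Trim25 and Oasl2 were highest at number 3 and lowest at number 2, and Irf2 was highest at number 1 and lowest at number 3. Gbp2, Psmb8, Psmb9, Tap1, Bst2, Stat2, Irf9 and Irf1 were among the 21 not called. Probes disagreed for Irf1 and Ifit2, where a second probe was called (adjusted p = 0.00238 for Irf1 and 0.000472 for Ifit2). Among the members called, dim probes of Parp14 (adjusted p = 0.271), Trim25 (adjusted p = 0.717) and B2m (adjusted p = 0.0897) were not called. Of the 10 called members with a promoter window 7 held the ISRE core shown above, and of the 19 others with a window 8 did.

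**Figure D4:**
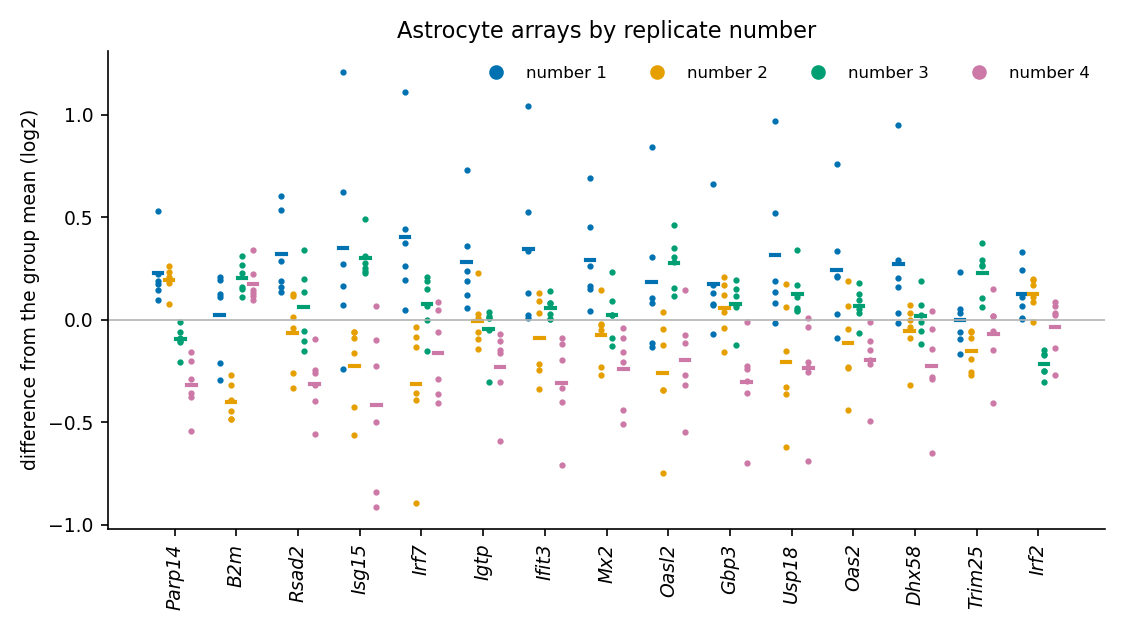
The 15 members called for replicate number in astrocytes (x axis, by p), with each array's difference from the mean of its treatment group in log2 intensity (y axis), coloured by replicate number 1 to 4, and a line for each number's mean. Number 1 had the highest mean for 12 members and number 4 the lowest for 10, while B2m was lowest at number 2.

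Beside this, 2 of 16 microglia markers differed between the numbers in astrocytes, and their mean level was 11.70, 11.65, 11.67 and 11.74 at numbers 1 to 4. Their part in the number differences was not tested. Of the further interferon targets 8 of 34 differed between numbers, among them Lgals9 (adjusted p = 6.283e-08), H2-K1 (adjusted p = 3.129e-06), Dtx3l (adjusted p = 0.000186) and Rnf213 (adjusted p = 0.000257). Among the signaling genes, whose share is not given, Stat3, Irf8, Cgas, Ticam1, Socs3 and Pias1 differed. For comparison, 12.2% of all probes and 28% of brighter probes differed by number in astrocytes. Of 7 ligand genes 0 differed and of 4 receptor genes 0 (limma, 2 and 0 at an unadjusted p under 0.05).

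The array with the highest mean of the members, dihydrotestosterone astrocytes 1, was the only one counted as follows. It was the highest of its group for 27 members, and dexamethasone astrocytes 1 was the highest of its own for 25. On dihydrotestosterone astrocytes 1, 20 of 36 members (55.6%) read higher than on all of the other 23 astrocyte arrays. Among all probes 4.41% did, among the further interferon targets 11 of 34 (32.4%) and among microglia markers 1 of 16 (6.25%). The members' median on this array lay 0.51 above vehicle astrocytes 1, against 0 over all probes. Isg15 differed from the vehicle array of the same number by 1.98, 0.03, 0.57 and -0.45 at numbers 1 to 4, and Ifit3 by 1.47, 0.07, 0.36 and -0.15. Oasl2 differed by 1.47, -0.13, 0.84 and -0.20, and Usp18 by 1.33, 0.03, 0.78 and -0.16. So arrays 1 and 3 were above their vehicle arrays for these 4 genes and array 4 below, with array 2 close to it. Irf1 (0.14), Gbp2 (0.17) and Psmb9 (0.12) on array 1 lay closer to the vehicle array of that number. The summed microglia marker intensity on this array, 203507, lay within the range of the astrocyte arrays. Without it 14 of 36 members still differed by number, with 11.1% of all probes, and Dhx58 missed the threshold (adjusted p = 0.0186).

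**Figure D5:**
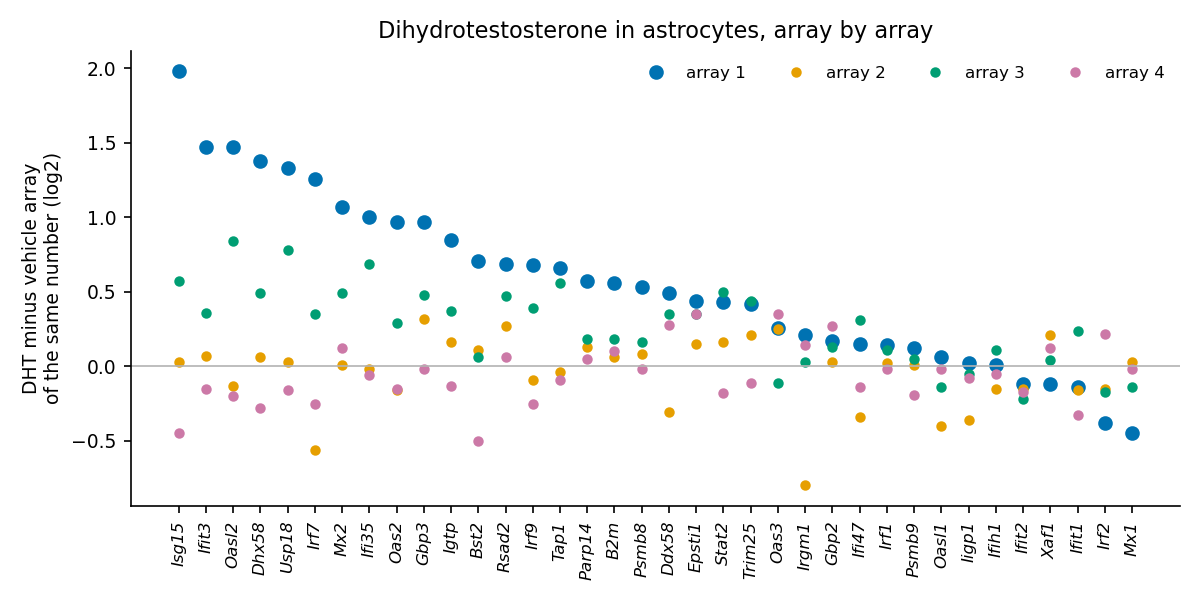
Difference in log2 intensity between dihydrotestosterone and vehicle astrocytes of the same replicate number (y axis) for each of the 36 genes (x axis), each point 1 pair of arrays coloured by number. Array 1 carried the largest differences, up to 1.98 for Isg15, and array 4 read lower than its vehicle array for Isg15, Ifit3, Oasl2 and Usp18.

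In neurons 2 of 36 members differed between the numbers, with 11.4% of all probes (10 members at an unadjusted p under 0.05). Irgm1, a regulator of the immunity-related GTPases and of autophagy, read 12.86, 13.18 and 13.36 (lowest, median and highest) at number 1 and 13.32, 13.50 and 13.70 at number 2. It read 13.63, 13.79 and 14.02 at number 3 and 13.51, 13.79 and 13.85 at number 4. Number 1 lay wholly below numbers 3 and 4, and array 1 was the lowest of its group in 5 of 6 groups (adjusted p = 1.613e-05). The other Irgm1 probes, dim in vehicle neurons, were not called (adjusted p = 0.1 and 0.911). Psmb8 read 7.92, 7.97 and 8.19 at number 1, 7.84, 8.14 and 8.88 at number 2, 7.65, 7.79 and 7.93 at number 3, and 7.71, 7.85 and 7.94 at number 4. The ranges overlapped, and the highest array was dihydrotestosterone neurons 2, at 8.88 (adjusted p = 0.00215, and 0.0251 without that array). That array also had the highest summed microglia marker intensity of the neuron arrays, 29226, against 13839 to 16381 on the others, and B2m at 12.78 and Gbp2 at 8.44. The part of those cells in the Psmb8 value was not tested. Without it 2 members were called, Irgm1 and B2m, with 10.6% of all probes.

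The next members by p in neurons did not pass. Ddx58 was dim, at 7.28, 7.36 and 7.47 at number 1 and 6.93, 7.06 and 7.16 at number 4, with the medians of numbers 2 (7.06, 7.24 and 7.29) and 3 (7.01, 7.07 and 7.14) between theirs (adjusted p = 0.019). Mx1, also dim, ran from 6.59 to 7.16 over all neuron arrays. Irf2 had medians of 11.43, 11.18, 11.24 and 11.33 and B2m of 11.93, 12.07, 12.25 and 12.30 at numbers 1 to 4, with overlapping arrays (B2m adjusted p = 0.0569). The difference in number effects between the cell types was not tested.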

How the data were processed

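The deposited table holds log2 intensities of 46174 Illumina mouse probes for 48 arrays, which the authors normalized and rounded to 2 decimals. The methods name background subtraction, quantile normalization and log2 transformation, and which of these steps gave the deposited values is not given in the sources used here. Normalization across both cell types could move levels of 1 type with the other, so a normalization within each type was an alternative. Probes were named through the platform annotation, with 35725 given 1 current symbol and 10449 left unnamed. A second deposited table of non-normalized intensities served only to match arrays to chips. As an array measurement, precision is limited by the number of arrays, 3 or 4 a group.

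The 12 group means were fitted to 46 arrays with limma 3.58.1 in R 4.3.3 (lmFit and eBayes, 34 residual and 11.4 prior degrees of freedom). P-values were adjusted by Benjamini-Hochberg over all 46174 probes within each comparison, and a call is a false discovery rate under 0.01. The methods' test is the plain two-sided Student's test of each probe (an F test for replicate number), adjusted the same way. Replicate number was tested with limma's moderated F statistic over the group means within a cell type. The methods' threshold was kept, with limma in place of the plain test of each steroid against vehicle. A steroid fit with the number as a block was also made, because the numbers pair the arrays. The deviations from the group means of arrays with the same number correlated above 0.1 in 60 of 60 astrocyte pairs (median 0.225) and 51 of 51 neuron pairs (median 0.306), where different numbers had medians of -0.147 and -0.155.

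The fit was tested on simulated data for dexamethasone in astrocytes over 46174 probes. It called 65.7% of probes changed by 0.5, 95.5% of those changed by 1 and 100% of those changed by 2 on the log2 scale. There were 5 false calls. The simulated noise was independent between arrays, without the correlation of same-number arrays seen in the data. The members and lists were chosen with earlier results of these data known. By-array values are given for members called with a steroid, the 6 of smallest p for replicate number in each cell type and the 4 of largest difference between the cell types. Other pathway genes are given by counts and up to 4 of smallest p per comparison. Epsti1 and other genes outside that rule were named after their values were seen. Ifi44, Nlrc5, Parp9 and Cmpk2 were not analysed here, and some pathway genes are not reported here. Motifs were searched in RefSeq promoter windows of GRCm38.p6 with Python 3.11.15.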

Additional observations from a re-analysis of the deposited data

Results flagged for a closer look

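Each group of 4 arrays was examined for an array far from the other 3, for the mean of the 36 members and for 15 members named in the report. Of 160 such groups 10 had a gap to the nearest array that, divided by the group's range, was above Dixon's 95% critical value. Chance gives about 1 in 20 for independent groups. These groups share arrays, and many of the members were named for their replicate number difference, so that rate is only a guide. B2m, the MHC class I light chain, accounted for 3 of them, each time with array 2 lowest in astrocytes. B2m had been named for its number difference on these same arrays, so the 3 cases repeat that result. It read 15.60 in dexamethasone astrocytes against 16.10 to 16.14 on the other arrays (gap 0.926 of the range), 15.60 in aldosterone astrocytes against 16.16 to 16.24 (0.875) and 15.51 in progesterone astrocytes against 16.11 to 16.20 (0.870). In aldosterone astrocytes array 4 was lowest for Ifit3, at 12.43 against 12.96 to 12.97 (0.981), and for Rsad2, at 9.99 against 10.51 to 10.52 (0.981).

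Gbp2 in dihydrotestosterone astrocytes was highest on array 1, at 13.14 against 12.83 to 12.86 on the others (0.903), the array that also read high for many other members. In aldosterone neurons Gbp2 was highest on array 3, at 7.92 against 7.44 to 7.51 (0.854). Psmb8 was highest on array 2 in dihydrotestosterone neurons, at 8.88 against 7.82 to 7.97 (0.858), and on array 1 in estradiol astrocytes, at 12.21 against 12.03 to 12.06 (0.833). The mean of the 36 members was highest on array 2 of estradiol astrocytes, at 9.97 against 9.92 to 9.93 (0.880).

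The neuron arrays left out gave values beyond the range of the 22 neuron arrays used. Vehicle neurons 3 read above all of them for 4 members (11.1%), namely Ifit2 at 9.32, Oasl1 at 7.16, Irgm1 at 14.17 and Stat2 at 8.85, and for 9.46% of all probes. It read below all of them for Ifit3, at 7.33, and Irf1, at 8.52, and for 6.17% of all probes. Dexamethasone neurons 3 read above all of them for 1 member, Isg15 at 7.54, and for 4.92% of all probes. It read below all of them for 4 members and for 4.07% of all probes. Those members were Irf2 at 10.64, Oas2 at 6.57, Igtp at 6.92 and Xaf1 at 6.71.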

How the results depend on the processing

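The astrocyte count for dexamethasone was 2 members, 1 where each cell type was fitted alone, 0 by the methods' test and 1 to 2 with single arrays left out. The call of Irf1 was kept in each of these fits except the methods' test (adjusted p = 0.0145). The aldosterone count of 1 was 2 with the replicate block, 0 with quantile normalization within each cell type, where each cell type was fitted alone, by the methods' test and with the chip identifier of the labels as a random block, and 0 to 1 with single arrays left out. It was 0 without aldosterone array 1, 2 or 3 or vehicle array 1 or 3. The chip identifiers of the labels matched the array they name in only 1 of 48 columns, so that block cannot stand for chips. For dexamethasone in neurons the count of 0 was 1, Irf1, with the replicate block and with quantile normalization. The replicate block changed no other steroid call.

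Replicate number in astrocytes called 15 members, 3 with the methods' test (B2m, Gbp2 and Parp14) and 13 to 17 with single arrays left out. In neurons it called 2, 3 with all 48 arrays, and 4 with quantile normalization or where neurons were fitted alone. The higher levels in vehicle astrocytes than in vehicle neurons were called for 26 members with dim probes left out and 31 with all 48 arrays, against 30. No result reversed. The causes of these changes were not tested. Low signal limits the 7 members dim in every group and, within neurons, the 21 dim in all neuron groups, for which a difference could be missed, and number and chip cannot be told apart.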
